A study of Mus musculus with 4 samples.

Results

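The adhesion G protein-coupled receptors are a family of cell surface receptors, and this account describes the accessible chromatin at their genes in cultured mouse bone marrow cells. The members are all protein-coding genes of the RefSeq annotation (GRCm38.p6) whose symbol starts with Adgr followed by a subfamily letter and a number. There were 27 such genes among 21887, in the subfamilies A (3 genes), B (3), D (1), E (3), F (5), G (7), L (4) and V (1). A locus was the gene body plus 10 kb on either side in mm10, and every called interval that overlapped a locus was counted, with the regions shared by neighbouring loci counted once. The loci held 223 of 120423 accessible regions.

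Adhesion receptors carry a long extracellular part that ends in an autoproteolysis domain, followed by a membrane-spanning part that signals through G proteins. They bind matrix proteins, other cell surface proteins or lipids, and most are studied outside blood. The blood cell members are best known from the E subfamily, which includes the macrophage antigen F4/80 (Adgre1) and CD97 (Adgre5), and from Adgrg1 (Gpr56) and Adgrg3 (Gpr97), which are expressed by stem cells, cytotoxic lymphocytes or granulocytes.

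Open chromatin was profiled by Omni-ATAC-seq, a transposase assay that tags accessible DNA, in C57BL/6J bone marrow cells kept in culture. The 4 libraries were 1 each of Cxcr3-/- monocytes, WT monocytes, Cxcr3-/- CMP/GMP and WT CMP/GMP, where CMP/GMP stands for a culture of common myeloid progenitors together with granulocyte-monocyte progenitors. Cxcr3 encodes a chemokine receptor, the knockout is of the whole mouse, and the study concerns macrophages in liver cancer. The labels give hepatocellular carcinoma as the disease state of all 4 libraries. The age of the mice, the time in culture, the cytokines used and how many animals were combined are not given in the sources used here. With 1 library per group, no difference below has a replicate check and no p-value is given.

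The lists held 78244 intervals in Cxcr3-/- monocytes, 98257 in WT monocytes, 80171 in Cxcr3-/- CMP/GMP and 69521 in WT CMP/GMP, at median summit pileups of 21 to 29 tags. A summit pileup is the number of sequencing tags stacked at the highest point of an interval. Pileups are given below after scaling, by which the median of the 44591 regions called in all 4 libraries was made equal. A region over one end of Cxcr3 had 23 tags in Cxcr3-/- monocytes, 41 in WT monocytes, 84 in Cxcr3-/- CMP/GMP and 34 in WT CMP/GMP, unscaled; the deleted part of the gene is not given, so this checks no label. Of 8 progenitor markers, 5 and 4 had an interval at a gene end in Cxcr3-/- and WT monocytes, against 7 and 7 in Cxcr3-/- and WT CMP/GMP, with summed scaled pileups of 152, 125, 442 and 448 in the same order of libraries. Of 8 monocyte and macrophage markers, 7 and 8 had one in Cxcr3-/- and WT monocytes, and 8 and 8 in Cxcr3-/- and WT CMP/GMP, with sums of 481, 486, 372 and 364. None of the T and NK cell markers Cd3e, Cd3g, Lck and Ncr1 had an interval there in any of the 4 libraries. Markers of other lineages did: in the same order of libraries the sums were 54.6, 64.6, 112 and 101 for 4 erythroid and megakaryocyte genes, 15.9, 26.0, 42.6 and 43.0 for 4 mast cell and basophil genes, 47.7, 35.9, 38.8 and 48.0 for 4 B cell genes, and 144, 103, 120 and 110 for 4 neutrophil genes. The erythroid and mast cell sums were higher in both CMP/GMP libraries than in either monocyte library. The difference in the mast cell sums, which count gene ends only, came from Mcpt8. It stood at 20.9 and 25.3 in Cxcr3-/- and WT CMP/GMP, with no gene end interval in monocytes. Gata2 stood at 15.9, 26.0, 21.7 and 17.7 in the same order of libraries, and Cpa3 and Ms4a2 had no interval there. Away from its ends, Cpa3 had 3 regions called in both CMP/GMP libraries and in no monocyte library. The strongest had 31.8 in Cxcr3-/- and 34.1 in WT CMP/GMP. The strongest Gata2 region had 10.2, 12.6, 29.5 and 29.1 in the same order of libraries. That of Ms4a2 had 14.4 in WT monocytes and 16.3 in Cxcr3-/- CMP/GMP. The part of these sums and regions in the CMP/GMP-high regions below was not tested.

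The RefSeq promoter table (GRCm38.p6) holds 24 windows for 20 of the 27 members, each from 250 bases before to 50 bases after an annotated start. Of these windows, 9 were overlapped by an interval in all 4 libraries, 3 in 1 to 3 libraries and 12 in none. The windows below belong to the genes at which the results turn. They show starts called in all 4 libraries, in Cxcr3-/- CMP/GMP alone and in no library. Capitals mark matches, on either strand, to 5 motifs of factors active in myeloid cells: GAGGAAGT (PU.1), TTGCNNAA (C/EBP), TGTGGT (RUNX), TGANTCA (AP-1) and GGGTGTGGC or GGGCGTGGC (Klf). None of these motifs contains another. All 6 windows are on the plus strand. Adgre4 (chr17:55749734-55750033) and Adgrl4 (chr3:151437632-151437931) were open in all 4 libraries. Adgrg1 has a first window (chr8:94976859-94977158) that was called only in Cxcr3-/- CMP/GMP and a second (chr8:94984149-94984448) that was open in all 4. The Adgrg3 window (chr8:95017442-95017741) was called only in Cxcr3-/- CMP/GMP, and the Adgrg4 window (chrX:56893984-56894283) in no library.
Adgre4: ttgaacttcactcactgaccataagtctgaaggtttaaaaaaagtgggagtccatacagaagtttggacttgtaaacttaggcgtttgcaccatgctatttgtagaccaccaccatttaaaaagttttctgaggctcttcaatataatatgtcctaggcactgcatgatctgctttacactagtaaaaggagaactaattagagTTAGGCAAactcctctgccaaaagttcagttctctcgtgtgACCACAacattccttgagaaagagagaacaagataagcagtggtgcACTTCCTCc
Adgrl4: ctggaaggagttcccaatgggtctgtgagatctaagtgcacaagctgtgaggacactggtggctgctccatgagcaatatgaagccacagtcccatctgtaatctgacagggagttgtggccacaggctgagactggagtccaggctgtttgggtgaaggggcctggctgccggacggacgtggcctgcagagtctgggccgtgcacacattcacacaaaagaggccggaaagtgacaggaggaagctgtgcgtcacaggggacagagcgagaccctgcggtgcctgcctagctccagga
Adgrg1 first: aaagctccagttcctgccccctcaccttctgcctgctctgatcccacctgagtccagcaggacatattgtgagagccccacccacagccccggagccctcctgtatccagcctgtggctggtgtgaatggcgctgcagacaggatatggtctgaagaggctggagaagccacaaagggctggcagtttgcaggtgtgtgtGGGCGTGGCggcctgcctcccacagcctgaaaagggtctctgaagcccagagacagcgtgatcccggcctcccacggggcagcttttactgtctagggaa
Adgrg1 second: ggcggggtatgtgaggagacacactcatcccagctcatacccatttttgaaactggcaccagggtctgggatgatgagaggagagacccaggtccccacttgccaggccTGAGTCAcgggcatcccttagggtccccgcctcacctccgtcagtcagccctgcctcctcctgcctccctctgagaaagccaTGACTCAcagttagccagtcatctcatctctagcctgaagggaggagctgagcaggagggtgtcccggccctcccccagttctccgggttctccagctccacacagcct
Adgrg3: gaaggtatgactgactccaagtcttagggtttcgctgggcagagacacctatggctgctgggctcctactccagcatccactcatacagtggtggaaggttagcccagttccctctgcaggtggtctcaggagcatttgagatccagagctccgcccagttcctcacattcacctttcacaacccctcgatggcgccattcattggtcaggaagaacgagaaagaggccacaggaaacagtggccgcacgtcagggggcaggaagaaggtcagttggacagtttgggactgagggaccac
Adgrg4: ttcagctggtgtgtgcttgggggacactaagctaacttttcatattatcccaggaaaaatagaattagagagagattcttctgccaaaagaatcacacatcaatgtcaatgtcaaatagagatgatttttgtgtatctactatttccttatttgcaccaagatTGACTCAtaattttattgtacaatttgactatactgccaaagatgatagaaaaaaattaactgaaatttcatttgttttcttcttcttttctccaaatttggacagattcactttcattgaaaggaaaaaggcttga

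The Adgre4 window held matches to C/EBP, RUNX and PU.1, and it was the 1 window of the 24 with a PU.1 match. Over all 32851 promoter windows, 3.2% held the PU.1 motif, 10.8% the C/EBP motif, 16.8% the RUNX motif, 7.81% the AP-1 motif and 4.19% a Klf motif. Among the 24 member windows, 3 held the C/EBP motif (Adgre4, Adgrf5 and Adgrg7), 5 RUNX, 3 AP-1 (Adgrf4, Adgrg1 and Adgrg4) and 1 Klf (Adgrg1). The open second window of Adgrg1 and the uncalled window of Adgrg4 both held AP-1 matches, and the windows of Adgrl4 and Adgrg3 held none of the 5 motifs. The letters therefore did not separate called from uncalled windows. GC content separated them no better: its median was 58.7% (range 40.3 to 74.0%) in the 9 windows called in all 4 libraries and 58.1% (32.0 to 81.7%) in the 12 called in none.

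Adhesion receptor loci were sparsely accessible for their size. They held 127 intervals in Cxcr3-/- monocytes, 162 in WT monocytes, 168 in Cxcr3-/- CMP/GMP and 144 in WT CMP/GMP. That is 29.3, 37.3, 38.7 and 33.2 intervals per Mb of locus, while the loci of all protein-coding genes held 45.6, 57.2, 46.5 and 40.3 per Mb in the same libraries. Very long genes weigh on this pooled density. In the same order, Adgrb3 (767 kb) held 0, 0, 1 and 0 intervals and Adgrl3 (809 kb) 10, 10, 11 and 11. Adgrv1 (538 kb) held 18, 22, 19 and 17. The density without these genes was not computed, so the pooled values do not describe the other loci. As a share of each list, the member loci took 0.162% (95% Clopper-Pearson interval 0.135 to 0.193%) in Cxcr3-/- monocytes and 0.165% (0.14 to 0.192%) in WT monocytes, against 0.21% (0.179 to 0.244%) in Cxcr3-/- CMP/GMP and 0.207% (0.175 to 0.244%) in WT CMP/GMP. Both monocyte shares were thus below both CMP/GMP shares. The WT monocyte list was the longest of the 4. Cut to the length of the shortest, the lists held 116, 106, 154 and 144 intervals in member loci, in the same order of libraries. The counting intervals of the shares overlapped. These and all other intervals cover counting error only.

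**Figure D1:**
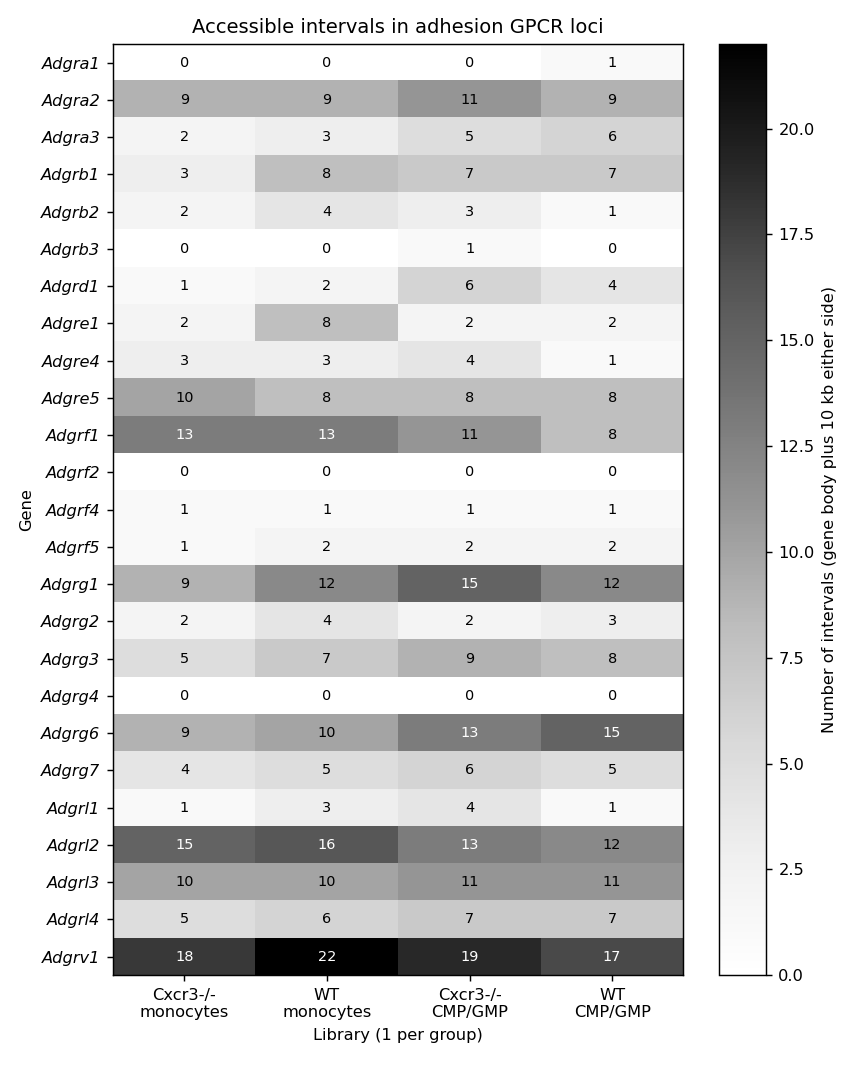
Number of called intervals in the loci of 25 of the adhesion receptor genes (rows), in the 4 libraries (columns); darker cells hold more intervals. Adgrv1 has the most, 18 and 22 in Cxcr3-/- and WT monocytes and 19 and 17 in Cxcr3-/- and WT CMP/GMP, and Adgrf2 and Adgrg4 have none.

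An interval within 1 kb of a gene start was present for 12 and 13 of the 27 members in Cxcr3-/- and WT monocytes and for 15 and 15 in Cxcr3-/- and WT CMP/GMP. For the 7 members without a promoter window, either gene end was used. Over all genes the share was 57.4% and 60.6% in Cxcr3-/- and WT monocytes and 61.2% and 58.3% in Cxcr3-/- and WT CMP/GMP. The member counts differed between the cell types by few genes and carry no counting interval. No difference from all genes is therefore read from them. The starts or ends of 12 genes had an interval in every library: Adgra2, Adgra3, Adgre1, Adgre4, Adgre5, Adgrf1, Adgrg1, Adgrg6, Adgrg7, Adgrl1, Adgrl3 and Adgrl4. Adgrg2 was among those added in both CMP/GMP libraries. Adgrg3 was added in Cxcr3-/- CMP/GMP, and Adgrb1 (by 1 gene end) in WT monocytes and WT CMP/GMP. Of the 223 regions, 24 lay at a start or end, 151 in a gene body and 48 in a flank.

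By the libraries that called them, 81 of the 223 regions (36.3%) were present in all 4, beside 37.0% of all regions. Monocyte-only regions, called in both monocyte libraries and in neither CMP/GMP library, numbered 21 or 9.42% (5.92 to 14%), beside 14.4% of all regions. CMP/GMP-only regions numbered 28 or 12.6% (8.51 to 17.6%), beside 7.28%. So the family had fewer monocyte-only and more CMP/GMP-only regions than the regions of the genome as a whole. With each list cut to its 69521 best intervals, because the lists differ in length, 17 of 197 regions were monocyte-only (8.63%, beside 13.3% of all) and 33 were CMP/GMP-only (16.8%, beside 11.6%). Regions called in 1 library alone were 3 in Cxcr3-/- monocytes, 19 in WT monocytes, 21 in Cxcr3-/- CMP/GMP and 10 in WT CMP/GMP, beside 2.61%, 12.5%, 7.54% and 2.94% of all regions.

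Gene by gene, 2 members had more intervals in both monocyte libraries than in either CMP/GMP library, Adgrf1 and Adgrl2, beside 19.5% of all genes. The opposite order held for 6 members, Adgra3, Adgrd1, Adgrg3, Adgrg6, Adgrl3 and Adgrl4, beside 6.93% of all genes. In lists of equal length no member had more in both monocyte libraries, beside 13.9% of all genes, and 12 had fewer, beside 15.0%. The 12 included Adgra3, Adgrb1, Adgrd1, Adgrf5, Adgrg1, Adgrg3, Adgrg6, Adgrg7, Adgrl3, Adgrl4 and Adgrv1. The plot of interval counts shows the pattern most plainly for Adgrd1, with 1 and 2 intervals in Cxcr3-/- and WT monocytes and 6 and 4 in Cxcr3-/- and WT CMP/GMP.

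The E subfamily holds the classical myeloid members. Adgre1, the F4/80 antigen of mouse macrophages, lies on chromosome 17 from 57358581 to 57483529. Its strongest region covered one gene end (chr17:57358431-57358929) in all 4 libraries, with scaled pileups of 50 in Cxcr3-/- monocytes, 71.8 in WT monocytes, 54.3 in Cxcr3-/- CMP/GMP and 41.7 in WT CMP/GMP. The log2 ratio of monocytes to CMP/GMP was −0.12 (95% counting interval −0.70 to 0.45) in Cxcr3-/- cells and 0.78 (0.18 to 1.42) in WT cells. The end of the F4/80 gene was therefore called in both CMP/GMP libraries as well, and only the WT ratio had an interval off 0. The difference between these ratios was not tested.

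Inside Adgre1, 1 region was monocyte-only (chr17:57409718-57410002), with 17.1 in Cxcr3-/- and 18.0 in WT monocytes. Another 5 intervals of the locus were called in WT monocytes alone, each with 6 to 11 tags. Intervals as weak as these were near the lowest pileup of that list, which was 5 tags, and the lowest in the other lists were 6, 9 and 7. They make up most of the difference between the 8 Adgre1 intervals of WT monocytes and the 2 of each other library.

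Adgre4, the FIRE antigen of mouse myeloid cells, was open at its start (chr17:55749750-55750156), the window printed above with the PU.1, C/EBP and RUNX matches. The scaled pileup there was 66.0 in Cxcr3-/- monocytes, 35.9 in WT monocytes, 43.4 in Cxcr3-/- CMP/GMP and 60.6 in WT CMP/GMP. The log2 ratio of monocytes over CMP/GMP stood at 0.60 (0.05 to 1.16) in Cxcr3-/- cells and −0.76 (−1.40 to −0.12) in WT cells. The Cxcr3-/- to WT log2 ratio was 0.88 (0.27 to 1.5) in monocytes and −0.48 (−1.06 to 0.11) in CMP/GMP. Scaled by background tags instead, the WT cell-type ratio turned to 0.23 and the Cxcr3-/- one was 1.05. A region 4402 bp into the gene had 29.6 in Cxcr3-/- monocytes, 32.3 in WT monocytes and 14 in Cxcr3-/- CMP/GMP and was not called in WT CMP/GMP.

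Adgre5 encodes CD97, a leukocyte receptor for the complement regulator Cd55, and had 7 regions called in all 4 libraries among 10. A region 779 bp inside 1 gene end (chr8:83740007-83740532) was the one that differed most between the cell types, with 30.7 in Cxcr3-/- monocytes, 26.0 in WT monocytes, 107 in Cxcr3-/- CMP/GMP and 101 in WT CMP/GMP. Its monocyte over CMP/GMP log2 ratio was −1.80 (−2.45 to −1.20) in Cxcr3-/- cells and −1.96 (−2.62 to −1.33) in WT cells, or −1.36 and −0.97 when scaled by background tags. A region in the gene body (chr8:83724712-83725112) leaned the same way, at 33.0 and 43.1 in Cxcr3-/- and WT monocytes and 83.0 and 79.6 in Cxcr3-/- and WT CMP/GMP. This region also lies in the annotated body of Ddx39a, an RNA helicase gene. Its ratios were −1.33 (Cxcr3-/-) and −0.89 (WT), and background scaling, which adds 0.99 to every WT ratio, turns the WT one above 0. Both CMP/GMP libraries stood above both monocyte libraries at each of these regions.

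Not all of Adgre5 did so. A region between them (chr8:83737969-83738515) was level, with 78.5 in Cxcr3-/- monocytes, 77.2 in WT monocytes, 83.0 in Cxcr3-/- CMP/GMP and 78.3 in WT CMP/GMP. An interval over the same gene end (chr8:83741138-83741397) was monocyte-only, with 27.3 in Cxcr3-/- and 26.9 in WT monocytes. The CMP/GMP-high and monocyte-only intervals lay within about a kilobase of each other. The highest region of the locus, at 115, 131, 144 and 142 in Cxcr3-/- monocytes, WT monocytes, Cxcr3-/- CMP/GMP and WT CMP/GMP, lies at an end of Ddx39a.

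**Figure D2:**
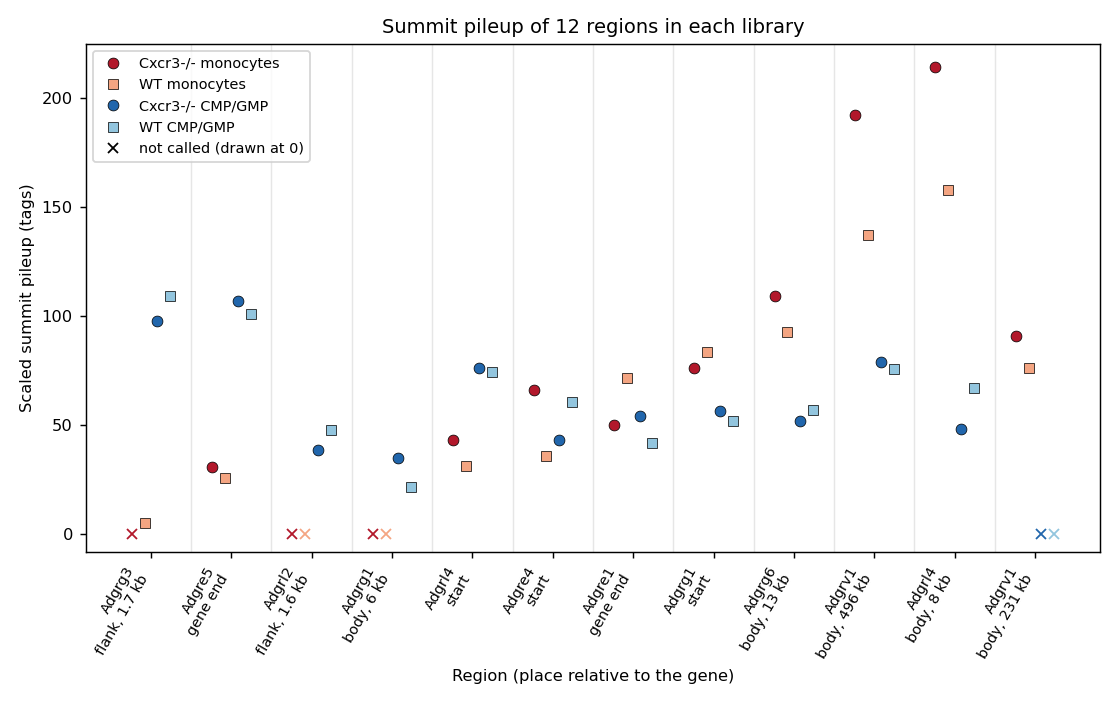
Scaled summit pileup (tags, linear axis) of 12 regions of adhesion receptor genes; circles are Cxcr3-/- and squares WT libraries, red for monocytes and blue for CMP/GMP, and a cross at 0 marks a region that was not called. The Adgrg3 flank region stands at 97.7 and 109 in Cxcr3-/- and WT CMP/GMP and at 5.39 in WT monocytes, while the Adgrl4 body region stands at 214 and 158 in Cxcr3-/- and WT monocytes and at 48.1 and 67.0 in Cxcr3-/- and WT CMP/GMP.

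The G subfamily held the largest cell-type difference of the family. Adgrg1 and Adgrg3 lie side by side on chromosome 8, and their loci share 3 regions. Adgrg3 encodes Gpr97, a receptor of granulocytes. A region 1675 bp beyond its end (chr8:95046925-95047374) had 126 tags in Cxcr3-/- CMP/GMP and 86 in WT CMP/GMP, was not called in Cxcr3-/- monocytes, and had 6 tags in WT monocytes. Scaled, that is 97.7 and 109 in Cxcr3-/- and WT CMP/GMP and 5.39 in WT monocytes, a WT monocyte over CMP/GMP log2 ratio of −4.33 (−5.82 to −3.15). At the mean scaled level of the libraries that called it, 62.1 tags would stand in Cxcr3-/- monocytes, where the weakest called interval had 6.

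A second region of the same flank (chr8:95049718-95049993) was CMP/GMP-only, with 41.9 in Cxcr3-/- and 49.3 in WT CMP/GMP. Another region, in the gene body (chr8:95020289-95021205), was called in all 4 libraries and stood at 22.7 in Cxcr3-/- monocytes, 15.3 in WT monocytes, 57.4 in Cxcr3-/- CMP/GMP and 45.5 in WT CMP/GMP. Monocytes were the higher cell type at 1 region of the gene (chr8:95024457-95024676), which was monocyte-only at 39.8 in Cxcr3-/- and 44.0 in WT monocytes. A region 19307 bp into the gene was nearly level, at 48.9 and 50.3 in Cxcr3-/- and WT monocytes and 57.4 and 58.1 in Cxcr3-/- and WT CMP/GMP. The annotated start itself was called only in Cxcr3-/- CMP/GMP, at 28.7.

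Adgrg1 encodes Gpr56, a receptor for collagen III that marks blood stem cells. Its second start (chr8:94984212-94984562), in the window with 2 AP-1 matches, was the highest region of the locus, with 76.2 in Cxcr3-/- monocytes, 83.5 in WT monocytes, 56.6 in Cxcr3-/- CMP/GMP and 51.8 in WT CMP/GMP. The log2 ratio of monocytes over CMP/GMP stood at 0.43 (−0.07 to 0.93) in Cxcr3-/- and 0.69 (0.14 to 1.26) in WT cells. A flanking region 9439 bp before the gene (chr8:94964805-94965317) went the other way, with 11.4 in Cxcr3-/- monocytes, 15.3 in WT monocytes, 63.6 in Cxcr3-/- CMP/GMP and 58.1 in WT CMP/GMP, and ratios of −2.48 (Cxcr3-/-) and −1.93 (WT). A body region (chr8:94990657-94990922) was CMP/GMP-only at 34.9 and 21.5 in Cxcr3-/- and WT CMP/GMP. Other regions near the 2 starts did not follow the highest one. A region 642 bp from the second start (chr8:94985041-94985338) was not called in Cxcr3-/- monocytes and stood at 18.0 in WT monocytes, 34.9 in Cxcr3-/- CMP/GMP and 30.3 in WT CMP/GMP. The region over the first start was called only in Cxcr3-/- CMP/GMP, at 19.4. Another, 276 bp from that start (chr8:94977385-94977609), was called only in WT monocytes, at 7.18.

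Adgrg6 encodes Gpr126, known for its part in myelination by Schwann cells. Its start (chr10:14544687-14545646) had 34.1 in Cxcr3-/- monocytes, 34.1 in WT monocytes, 17.8 in Cxcr3-/- CMP/GMP and 20.2 in WT CMP/GMP. A body region (chr10:14531093-14531580) had 109, 92.5, 51.9 and 56.9 in the same libraries, with a monocyte over CMP/GMP log2 ratio of 1.07 (0.61 to 1.54) in Cxcr3-/- and 0.70 (0.18 to 1.24) in WT cells. Another (chr10:14474628-14475396) was flat at 69.4, 70.9, 72.9 and 69.5. Although its strong regions leaned to monocytes or were level, Adgrg6 had 9 and 10 intervals in Cxcr3-/- and WT monocytes, against 13 and 15 in Cxcr3-/- and WT CMP/GMP. The additional ones in CMP/GMP were weak, such as a CMP/GMP-only region 80532 bp into the gene at 11.6 and 12.6 in Cxcr3-/- and WT CMP/GMP.

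Adgrg7, or Gpr128, had a body region (chr16:56729156-56729674) with 62.5 in Cxcr3-/- monocytes, 46.7 in WT monocytes, 20.2 in Cxcr3-/- CMP/GMP and 29.1 in WT CMP/GMP. Its start was weak, at 23.9, 8.98, 16.3 and 24.0, and a flank region was CMP/GMP-only at 11.6 and 17.7 in Cxcr3-/- and WT CMP/GMP. The highest region of the locus, at 183, 152, 181 and 193, is at an end of Tfg, a secretory pathway gene. Adgrg2, or Gpr64, known from the male reproductive tract, was called at its start in both CMP/GMP libraries only, at 17.1 in Cxcr3-/- and 19 in WT CMP/GMP. Its highest region, at 72.8, 65.5, 80.6 and 59.4 in the 4 libraries in the same order, is at Phka2, a phosphorylase kinase gene. Adgrg4 had no interval in any of the 4 libraries. For Adgre5, Adgrg2, Adgrg7 and Adgra2 alike, then, the highest region of the locus lay at an end of another gene.

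**Figure D3:**
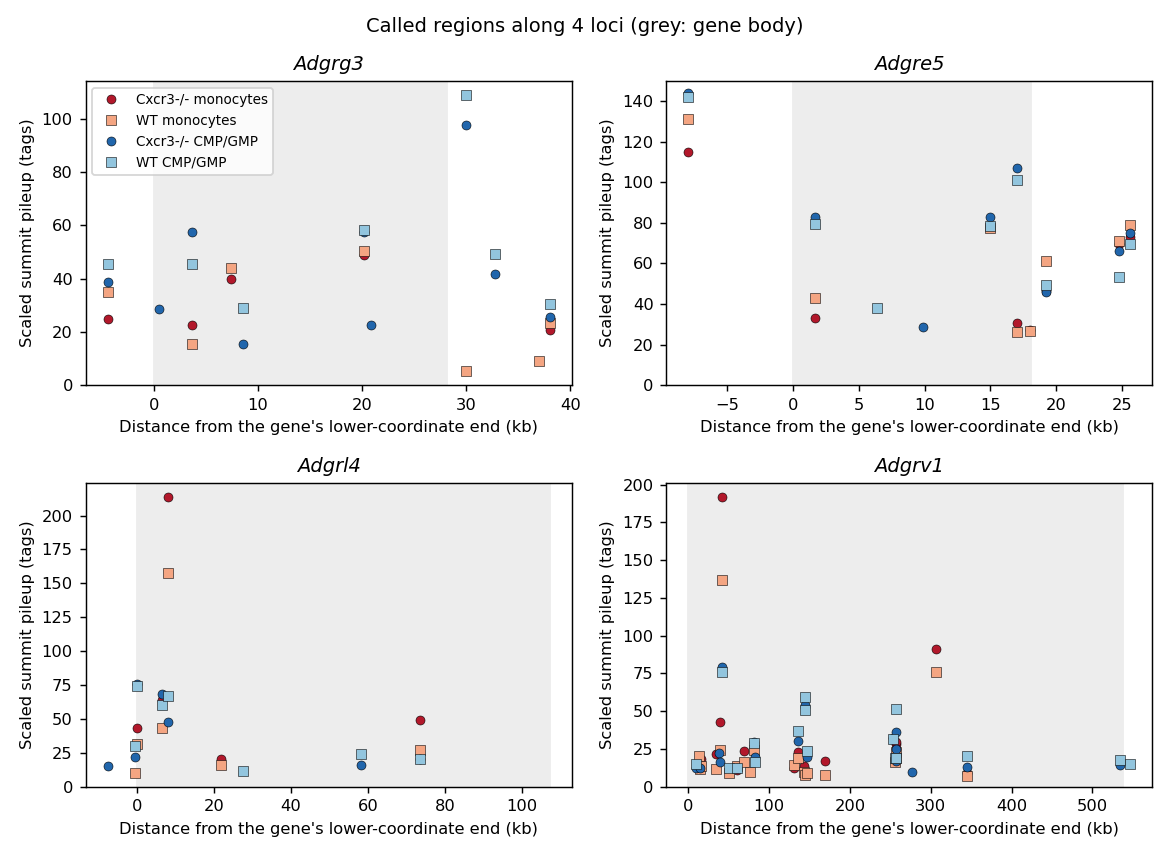
Scaled summit pileup (tags, linear axis) of each called region along 4 loci, against distance from the end of the gene with the lower coordinate (kb); grey marks the gene body and the symbols are circles for Cxcr3-/- and squares for WT, red for monocytes and blue for CMP/GMP. In Adgrg3 the points beyond the gene at 97.7 and 109 are Cxcr3-/- and WT CMP/GMP, and in Adgrv1 the body points at 91.0 and 76.3 are Cxcr3-/- and WT monocytes with no CMP/GMP point beside them.

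The L subfamily holds the latrophilins, which bind teneurins and Flrt proteins, and the endothelial receptor Adgrl4 (Eltd1). Among regions not at another gene, the highest pileup in any 1 library was in Adgrl4. That region (chr3:151445873-151446296), 7991 bp into the gene, had 188 tags in Cxcr3-/- monocytes, 176 in WT monocytes, 62 in Cxcr3-/- CMP/GMP and 53 in WT CMP/GMP. Scaled, it stood at 214, 158, 48.1 and 67.0, with a monocyte over CMP/GMP log2 ratio of 2.15 (1.73 to 2.59) in Cxcr3-/- and 1.24 (0.79 to 1.71) in WT cells. Under background scaling the ratios were 2.60 and 2.23.

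The start of Adgrl4, printed above, ran in the opposite direction. It had 43.2 in Cxcr3-/- monocytes, 31.4 in WT monocytes, 76.0 in Cxcr3-/- CMP/GMP and 74.5 in WT CMP/GMP, with ratios of −0.81 (−1.39 to −0.26) in Cxcr3-/- and −1.25 (−1.89 to −0.62) in WT cells. Both stayed below 0 under background scaling, at −0.37 and −0.26. A region between the start and the monocyte-high region was close to level, at 63.7, 43.1, 68.2 and 60.6. A CMP/GMP-only region lay farther in, at 16.3 in Cxcr3-/- and 24.0 in WT CMP/GMP.

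Because Adgrl4 is an endothelial gene, the 4 endothelial markers were read beside it. Cdh5 and Tek had an interval at a gene end in both monocyte libraries, as did Kdr, and Pecam1 in WT monocytes only, which makes 3 and 4 genes in Cxcr3-/- and WT monocytes. In Cxcr3-/- CMP/GMP 2 had one (Pecam1 and Kdr), and in WT CMP/GMP 1 (Tek). The summed scaled pileups were 45.5 in Cxcr3-/- monocytes, 41.3 in WT monocytes, 27.1 in Cxcr3-/- CMP/GMP and 12.6 in WT CMP/GMP. The strongest regions of these loci, wherever they lay, were larger and also higher in monocytes. That of Cdh5 had 134 in Cxcr3-/- monocytes, 109 in WT monocytes, 69.8 in Cxcr3-/- CMP/GMP and 78.3 in WT CMP/GMP. That of Kdr had 122, 97.0, 47.3 and 55.6 in the same order, with log2 ratios of monocytes over CMP/GMP of 1.36 (Cxcr3-/-) and 0.80 (WT). That of Tek had 55.7, 33.2, 11.6 and 12.6, with ratios of 2.26 and 1.39, and that of Pecam1 had 40.9, 36.8, 24.0 and 30.3. The strongest region of each of these 4 loci thus leaned in the same direction as the Adgrl4 body region in both genotypes. The ratios were smaller for Cdh5, at 0.94 (Cxcr3-/-) and 0.47 (WT), and for Pecam1, at 0.77 and 0.28. Pecam1 also held 2 monocyte-only and 2 CMP/GMP-only regions. These marker ratios carry no counting interval, and the part of the 4 loci in the Adgrl4 region was not tested.

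Adgrl2, or latrophilin 2, had 18 regions, of which 9 were in all 4 libraries, 4 were monocyte-only and 2 CMP/GMP-only. The highest (chr3:148917839-148918826) had 174 in Cxcr3-/- monocytes, 142 in WT monocytes, 119 in Cxcr3-/- CMP/GMP and 139 in WT CMP/GMP. A region 4549 bp from the annotated start (chr3:148959184-148959893) had 109 and 91.6 in Cxcr3-/- and WT monocytes and 27.9 and 43.0 in Cxcr3-/- and WT CMP/GMP, with ratios of 1.97 and 1.09. Another (chr3:148895423-148896010) was the reverse, at 15.9 and 6.28 in Cxcr3-/- and WT monocytes and 44.2 and 50.5 in Cxcr3-/- and WT CMP/GMP. The CMP/GMP-only region beyond the upstream end of the gene (chr3:148990701-148990915) stood at 38.8 in Cxcr3-/- and 48.0 in WT CMP/GMP. The promoter table gives 1 start, inside the gene, and no interval lay within 1 kb of it. The upstream end of the gene body was covered in all 4 libraries (chr3:148988981-148990230), at 89.8 in Cxcr3-/- monocytes, 72.7 in WT monocytes, 59.7 in Cxcr3-/- CMP/GMP and 79.6 in WT CMP/GMP. Adgrl2 was thus counted as having no start interval although its outer end was open.

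Adgrl3 was called at its start (chr5:81020811-81021375) at 15.9 in Cxcr3-/- monocytes, 17.1 in WT monocytes, 27.9 in Cxcr3-/- CMP/GMP and 37.9 in WT CMP/GMP. Its highest region (chr5:81058085-81058515) had 58.0, 40.4, 52.7 and 53.1, and 1 body region was CMP/GMP-only at 14.7 and 17.7 in Cxcr3-/- and WT CMP/GMP. Another body region (chr5:81037126-81037456) was monocyte-high, at 46.6 in Cxcr3-/- monocytes, 32.3 in WT monocytes, 20.2 in Cxcr3-/- CMP/GMP and 12.6 in WT CMP/GMP. Its ratio was 1.21 (0.47 to 1.98) in Cxcr3-/- and 1.35 (0.31 to 2.53) in WT cells, the WT one from a mean of fewer than 30 tags. The start of Adgrl1 was its highest region, with 13.6 in Cxcr3-/- monocytes, 23.3 in WT monocytes, 24.8 in Cxcr3-/- CMP/GMP and 19 in WT CMP/GMP. A weaker body region of Adgrl1 was called in WT monocytes at 7.18 and in Cxcr3-/- CMP/GMP at 13.2. Neither gene had a monocyte-only region.

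Adgrv1 encodes the very large receptor of hair cell links that is mutated in Usher syndrome. It had 31 regions over 538 kb, more than any other member, of which 8 were monocyte-only and 5 CMP/GMP-only. The strongest monocyte-only region of the family was here (chr13:81401794-81402126), with 80 tags in Cxcr3-/- monocytes and 85 in WT monocytes, or 91.0 and 76.3 scaled. At that level 108 tags would stand in Cxcr3-/- CMP/GMP and 66.2 in WT CMP/GMP, whose weakest called intervals had 9 and 7. The highest region (chr13:81136388-81137265) had 192 in Cxcr3-/- monocytes, 137 in WT monocytes, 79.1 in Cxcr3-/- CMP/GMP and 75.8 in WT CMP/GMP, with ratios of 1.28 (0.92 to 1.65) and 0.86 (0.42 to 1.31) in Cxcr3-/- and WT cells.

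In the same gene, 2 adjoining regions were CMP/GMP-high. The first (chr13:81238889-81239271) had 9.10 and 8.08 in Cxcr3-/- and WT monocytes and 52.7 and 59.4 in Cxcr3-/- and WT CMP/GMP. The second (chr13:81239455-81239732) was CMP/GMP-only at 54.3 and 50.5 in Cxcr3-/- and WT CMP/GMP. No interval lay within 1 kb of the Adgrv1 start in any of the 4 libraries, so its accessible regions were all within the body or flank.

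The A, B, D and F subfamilies were weaker. Adgra2 (Gpr124), a coreceptor for Wnt7 in brain vessels, had 12 regions and was called at a gene end at 17.1 in Cxcr3-/- monocytes, 16.2 in WT monocytes, 23.3 in Cxcr3-/- CMP/GMP and 17.7 in WT CMP/GMP. Its highest region, at 40.9, 56.6, 60.5 and 50.5, is at Brf2, a transcription factor gene of RNA polymerase III. A flank region (chr8:27080136-27080377) was not called in Cxcr3-/- monocytes and stood at 5.39 in WT monocytes, 24.0 in Cxcr3-/- CMP/GMP and 32.9 in WT CMP/GMP. A body region (chr8:27120520-27121117) also leaned to CMP/GMP, at 22.7, 12.6, 67.5 and 53.1 in Cxcr3-/- monocytes, WT monocytes, Cxcr3-/- CMP/GMP and WT CMP/GMP. Other body regions went the other way. One (chr8:27104942-27105369) had 39.8, 46.7, 31.0 and 22.7 in the same order, with ratios of 0.36 (−0.34 to 1.05) in Cxcr3-/- and 1.04 (0.24 to 1.9) in WT cells. Another (chr8:27108231-27108466) had 42.1 in Cxcr3-/- monocytes, 34.1 in WT monocytes and 18.6 in Cxcr3-/- CMP/GMP, a Cxcr3-/- ratio of 1.18 (0.4 to 1.98), and was not called in WT CMP/GMP.

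Adgra3 (Gpr125) was the plainest case of an open start with a progenitor-leaning body. The start region (chr5:50058398-50059324), which a predicted gene shares, was nearly level at 55.7 in Cxcr3-/- monocytes, 45.8 in WT monocytes, 57.4 in Cxcr3-/- CMP/GMP and 53.1 in WT CMP/GMP. Of its 7 regions, 3 were CMP/GMP-only and none monocyte-only, the best at 19.4 in Cxcr3-/- and 26.5 in WT CMP/GMP. Adgra1 had 1 interval in all, with 11 tags in WT CMP/GMP.

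Adgrb1 (Bai1) is an engulfment receptor that signals through Elmo1 and Dock1. Its highest region (chr15:74519409-74519959) had 12.5 in Cxcr3-/- monocytes, 8.08 in WT monocytes, 31.0 in Cxcr3-/- CMP/GMP and 31.6 in WT CMP/GMP, and a body region (chr15:74528215-74528450) had 5.39 in WT monocytes, 18.6 in Cxcr3-/- CMP/GMP and 21.5 in WT CMP/GMP. The end of the gene away from these was called in the WT libraries only, at 12.6 in monocytes and 11.4 in CMP/GMP. Adgrb2 (Bai2) had a body region in all 4 libraries at 22.7, 24.2, 32.6 and 26.5, and one in WT monocytes and Cxcr3-/- CMP/GMP at 7.18 and 13.2. Adgrb3 (Bai3) had 1 interval, with 13 tags in Cxcr3-/- CMP/GMP.

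Adgrd1 (Gpr133) had a body region in all 4 libraries, at 27.3 in Cxcr3-/- monocytes, 18.0 in WT monocytes, 28.7 in Cxcr3-/- CMP/GMP and 25.3 in WT CMP/GMP, and 3 CMP/GMP-only regions. The best of these had 20.9 in Cxcr3-/- and 21.5 in WT CMP/GMP. Adgrf1 (Gpr110) was called at its start at 22.7 in Cxcr3-/- monocytes, 16.2 in WT monocytes, 22.5 in Cxcr3-/- CMP/GMP and 22.7 in WT CMP/GMP, and its highest region, just beyond the gene, stood at 38.7, 42.2, 49.6 and 56.9. With 3 monocyte-only regions and no CMP/GMP-only region, Adgrf1 ran against the family, but these 3 regions were weak, at 6.28 to 23.9. A stronger flank region (chr17:43327908-43328142) was called in all 4 libraries and was also higher in monocytes, at 45.5, 36.8, 22.5 and 22.7. Its log2 ratio was 1.02 (0.29 to 1.76) in Cxcr3-/- and 0.69 (−0.14 to 1.58) in WT cells, the WT one from a mean of fewer than 30 tags. A nearby region of Adgrf1 (chr17:43327296-43327546) was not called in WT monocytes and stood at 15.9, 24.8 and 22.7 in Cxcr3-/- monocytes, Cxcr3-/- CMP/GMP and WT CMP/GMP.

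Adgrf5 (Gpr116), known from lung surfactant control, had 4 regions, the best of them CMP/GMP-only at 17.8 and 20.2 in Cxcr3-/- and WT CMP/GMP. Adgrf4 (Gpr115) had 1 region, called in all 4 libraries at 11.4 in Cxcr3-/- monocytes, 5.39 in WT monocytes, 11.6 in Cxcr3-/- CMP/GMP and 13.9 in WT CMP/GMP. Adgrf2 (Gpr111) had no interval. These F members thus had little or no called accessibility in these cells.

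Ratios of pileups could be read only where both libraries called a region and their mean reached 30 tags. For Cxcr3-/- monocytes over Cxcr3-/- CMP/GMP that left 56 member regions, of which 10 were more than 2-fold higher and 8 more than 2-fold lower, beside 10.9% and 9.78% of all regions. For WT monocytes over WT CMP/GMP it left 44, of which 3 were higher and 5 lower, beside 10.8% and 6.67%. The median log2 ratio was −0.07 in Cxcr3-/- and −0.16 in WT cells, beside −0.10 and 0.03 over all regions. Scaling by background tags would add 0.44 and 0.99 to every Cxcr3-/- and WT ratio, which turns both member medians positive. A filter of this kind leaves out the regions that 1 cell type lacks, so presence and ratio answer different questions.

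Of 43 member regions with a ratio in both genotypes, 2 were more than 2-fold higher in monocytes in both, in Adgrl4 and Adgrl2, beside 6.72% of all regions. Another 2 were more than 2-fold lower in both, in Adgre5 and Adgrg1, beside 3.69%. In 12 regions the ratio was above 0 in both genotypes and in 19 below 0 in both, beside 35.8% and 39.1%, and 12 had opposite signs, beside 25%. The plot of the cell-type ratios shows these 4 regions at the corners.

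**Figure D4:**
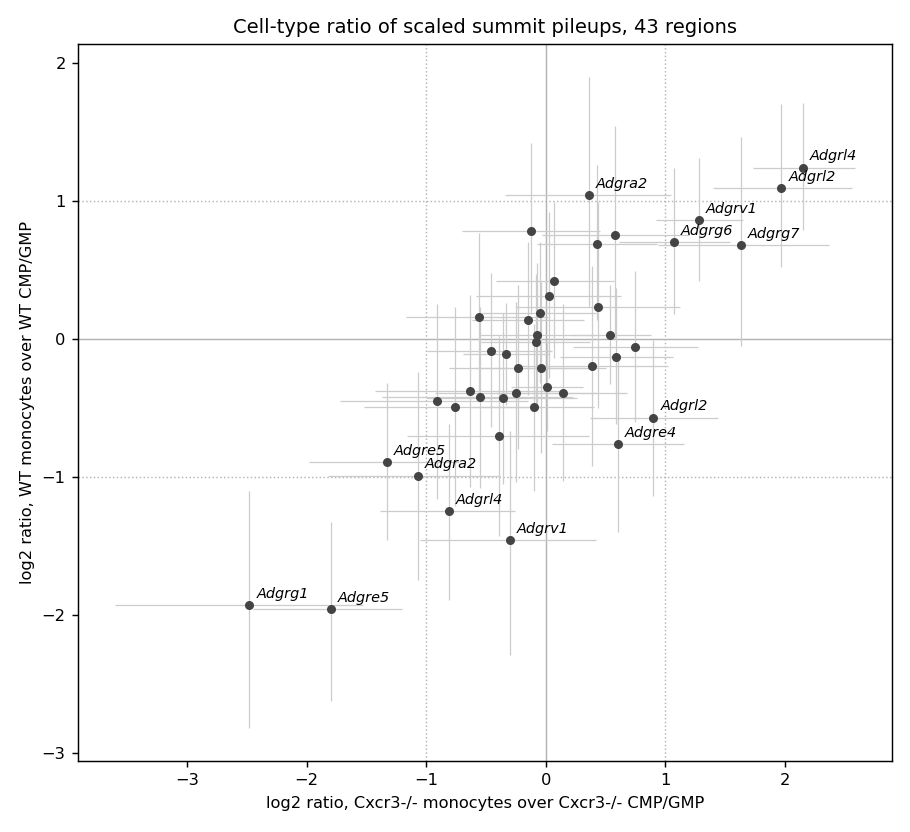
log2 ratio of scaled summit pileup, monocytes over CMP/GMP, in Cxcr3-/- cells (horizontal) and WT cells (vertical) for 43 adhesion receptor regions; bars are 95% counting intervals, dotted lines mark 2-fold and labels name the genes of the outer points. The Adgrl4 body region lies at 2.15 (Cxcr3-/-) and 1.24 (WT), and the Adgre5 end region at −1.80 and −1.96.

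For the genotype, no member region was more than 2-fold higher or lower in Cxcr3-/- than in WT cells. In monocytes this was 0 and 0 of 47 regions, beside 0.264% higher and 0.401% lower among all regions, and in CMP/GMP 0 and 0 of 58, beside 0.139% and 0.136%. Changes of this size were rare among all regions, so a count of 0 is near the background. The median log2 ratio was 0.24 in monocytes, beside 0.00 over all regions, and −0.01 in CMP/GMP, beside 0.05. Background scaling shifts all ratios by −0.37 in monocytes, which turns the first median negative, and by 0.18 in CMP/GMP.

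In monocytes, 28 of the 47 ratios were above 0 and 6 had a counting interval wholly above 0, and none wholly below, beside 6.03% and 4.44% of all regions. The 6 lie in Adgre4, Adgrl2, Adgrl4 (2 regions) and Adgrv1 (2 regions). The Adgrl4 body region described above had a Cxcr3-/- to WT log2 ratio of 0.44 (0.13 to 0.74), and the second Adgrl4 region (chr3:151511244-151511638) 0.86 (0.15 to 1.58). The highest region of Adgrv1 had 0.48 (0.16 to 0.81) and a neighbour (chr13:81133634-81133787) 0.83 (0.08 to 1.60). Under background scaling the first Adgrl4 value was 0.07 and that of the highest Adgrv1 region 0.12.

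These ratios moved with the gene density around the region. Across the 47 regions, which share the same library pair, Spearman's rho between the monocyte genotype ratio and the number of genes within 0.5 Mb was −0.70, and over all regions −0.39. In windows with at most 10 genes the member median was 0.31 (29 regions, 25 above 0), beside 0.12 over all such regions. In windows with more than 10 genes it was −0.14 (18 regions, 3 above 0), beside −0.11. Within the windows of at most 10 genes rho was −0.43 for the members, and within the others 0.04. Over all regions these values were −0.21 and −0.24. Regions of one locus have much the same gene count, so they are not independent points. Most adhesion receptor regions with a positive ratio thus lie in gene-poor windows, where ratios over all regions were also higher, and the part of gene density was not tested. In CMP/GMP rho was 0.31 for the members and 0.17 over all regions.

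**Figure D5:**
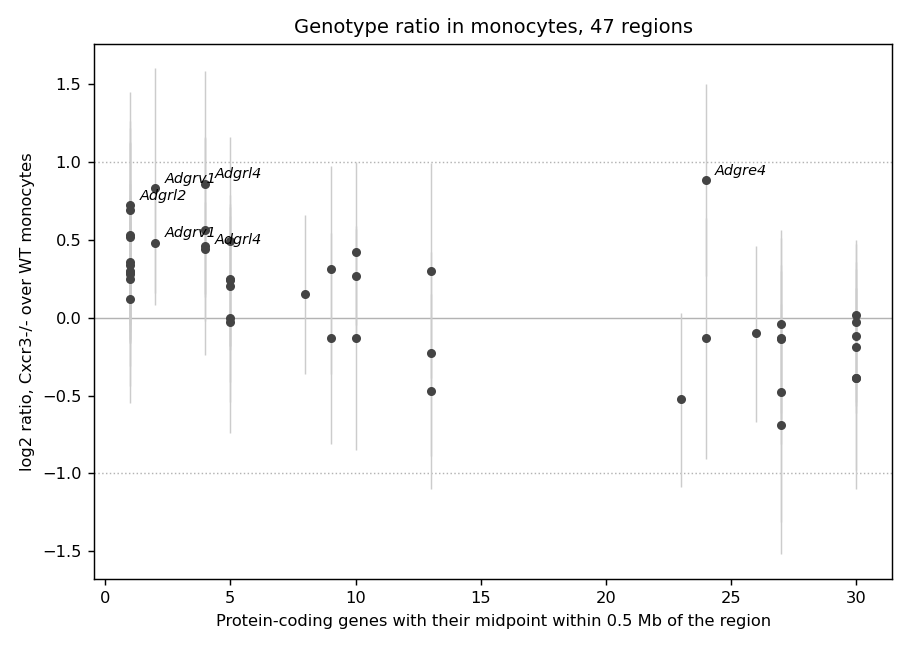
log2 ratio of scaled summit pileup, Cxcr3-/- over WT monocytes, against the number of protein-coding genes within 0.5 Mb, for 47 adhesion receptor regions; bars are 95% counting intervals and labels name regions whose interval lies above 0. Of 29 regions with at most 10 genes nearby, 25 lie above 0, and of the 18 others 3 do.

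In CMP/GMP 1 region had a genotype interval above 0, in Adgrl3 (chr5:81076456-81076727, 0.88, 0.04 to 1.80), and 1 below, in Adgrl2 (chr3:148933168-148933607, −0.76, −1.32 to −0.20). Read against 2.68% and 1.88% of all regions, that is near the background. The Adgrl2 region was also 1 of the 6 above 0 in monocytes, where its ratio was 0.72 (0.18 to 1.26). It was the 1 region of 35 with ratios in both cell types whose intervals lay on opposite sides of 0, beside 0.559% of all regions. In the cell-type ratios of the 2 genotypes this held for 2 of 43 regions, beside 0.242%: the same Adgrl2 region and the Adgre4 start.

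The wider pathway was read from a list of 41 genes in 3 roles. The cadherin-type relatives Celsr1, Celsr2 and Celsr3, known for planar cell polarity, had 23, 22, 27 and 25 intervals in Cxcr3-/- monocytes, WT monocytes, Cxcr3-/- CMP/GMP and WT CMP/GMP. The strongest Celsr3 region was level at 147, 156, 147 and 154, and that of Celsr2 was lower in monocytes, at 50 and 38.6 in Cxcr3-/- and WT monocytes and 80.6 and 101 in Cxcr3-/- and WT CMP/GMP. The strongest Celsr1 region had 70.5, 46.7, 85.3 and 67.0. Of their 32 regions, 2 were monocyte-only (6.25%, beside 14.4% of all regions) and 5 CMP/GMP-only (15.6%, beside 7.28%).

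The 22 ligand genes had 124, 143, 130 and 116 intervals in the same order of libraries. Of their 201 regions, 25 were monocyte-only (12.4%, beside 14.4% of all regions) and 24 CMP/GMP-only (11.9%, beside 7.28%). Among those with most intervals were Tenm4 (102 over the 4 libraries) and Flrt2 (39), whose proteins bind latrophilins, and the basement membrane gene Col4a1 (41). The strongest Flrt2 region had 133 in Cxcr3-/- monocytes, 110 in WT monocytes, 32.6 in Cxcr3-/- CMP/GMP and 19 in WT CMP/GMP. The strongest Tenm4 region, at 83.0, 67.3, 107 and 96.0, and that of Col4a1, at 31.8, 40.4, 38.0 and 27.8, were within 2-fold in both genotypes. Tenm4 had no interval at its gene start.

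The 16 effector genes, G protein subunits and the signalling proteins behind them, had 177 and 230 intervals in Cxcr3-/- and WT monocytes and 159 and 132 in Cxcr3-/- and WT CMP/GMP. Of their 257 regions, 47 were monocyte-only (18.3%, beside 14.4% of all regions) and 13 CMP/GMP-only (5.06%, beside 7.28%). All 16 had an interval at a gene start or end in each library, beside 57.4 to 61.2% of all genes. Of 70 regions with ratios in both genotypes, 7 were more than 2-fold higher in monocytes in both and none lower, beside 6.72% and 3.69% of all regions. Elmo1 (171 intervals over the 4 libraries), Gnaq (101), Dock1 (53) and Gna12 (46) had the most. The strongest Elmo1 region stood at 98.9 in Cxcr3-/- monocytes, 92.5 in WT monocytes, 16.3 in Cxcr3-/- CMP/GMP and 29.1 in WT CMP/GMP, and that of Dock1, at its start, at 98.9, 60.1, 41.9 and 51.8.

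The strongest Gnaq region had 46.6 and 69.1 in Cxcr3-/- and WT monocytes and 83.0 and 72.0 in Cxcr3-/- and WT CMP/GMP, with log2 ratios of −0.83 (Cxcr3-/-) and −0.06 (WT). The start of Gna12 had 140, 154, 192 and 138. The difference between the effector and receptor lists was not tested.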

How the data were processed

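Omni-ATAC-seq was read from 4 interval lists, 1 library per group. Trim Galore, Bowtie2, SAMtools and the build mm10 are named, without order, in the submitters' processing notes. Neither the peak caller nor any pooling of the duplicate sequencing is given in the sources used here. The score deposited by the authors equals the whole part of 10 times the −log10 q. The fold deposited by the authors is the ratio of summit pileup to expected background, and the −log10 p and −log10 q are the authors' values for each summit. The summit offset was deposited by the authors as well and was used only to compare summits.

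The whole-number pileup was recovered from the deposited fold and −log10 p, assuming a Poisson background and 1 added tag, and came out whole within 0.001 for all but 0, 1, 2 and 0 intervals of Cxcr3-/- monocytes, WT monocytes, Cxcr3-/- CMP/GMP and WT CMP/GMP. Paired mates may both count as tags, which would make counting intervals too narrow. Factors of 0.879, 1.11, 1.29 and 0.791 scaled the pileups, by the median over regions called in all 4 libraries. Overlapping intervals were merged into regions. A ratio needed a call in both libraries and a mean of 30 tags. It carries an exact conditional binomial 95% interval. More than 2-fold counted as called. Background tags (97.2, 95.6, 194 and 135 per 10 kb), total pileup, the deposited fold, equal-length lists and other overlaps, flanks and filters were alternatives. The scaling by the median of ratios was chosen after seeing the data.

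Sequences are from the RefSeq promoter table; as no genome was used here, motifs were searched in 300-base promoter windows and not in the called regions. An uncalled region is not shown to be closed. Members with a region called in all 4 libraries or reaching 30 tags, and all E members, are given with their start region, highest region and region of largest cell-type difference, and related genes are named by their number of intervals; a few genes that this rule would name are not reported here. Any further region in the text was picked with its values in view. The members and lists were chosen with earlier results of these data known. Steps were tested on simulated data with Python 3.11.15, NumPy 2.4.6, pandas 2.3.3 and SciPy 1.17.1.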

Additional observations from a re-analysis of the deposited data

Results flagged for a closer look

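In 2 of the 43 adhesion receptor regions with a ratio in both genotypes, the monocyte to CMP/GMP ratio pointed one way in Cxcr3-/- and the other in WT cells, each with a counting interval off 0, beside 0.242% of all regions; the difference was not tested. At the Adgre4 start the log2 ratio was 0.60 (0.05 to 1.16) in Cxcr3-/- and −0.76 (−1.40 to −0.12) in WT cells. In Adgrl2 (chr3:148933168-148933607) it was 0.90 (0.37 to 1.44) in Cxcr3-/- and −0.57 (−1.14 to −0.01) in WT cells, from scaled pileups of 79.6 in Cxcr3-/- monocytes, 48.5 in WT monocytes, 42.6 in Cxcr3-/- CMP/GMP and 72.0 in WT CMP/GMP. The same Adgrl2 region was 1 of 35 whose Cxcr3-/- to WT log2 ratio differed in sign between the cell types, 0.72 (0.18 to 1.26) in monocytes and −0.76 (−1.32 to −0.20) in CMP/GMP, beside 0.559% of all regions. Both rest on the same 4 values. No such region was left when scaled by background tags.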

How the results depend on the processing

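No paired analysis was possible because each group has 1 library and no ratio comes from a test across samples. In lists of equal length, WT monocytes had 106 intervals in member loci and 254 in the related genes. Regions more than 2-fold higher in Cxcr3-/- monocytes than in Cxcr3-/- CMP/GMP numbered 6 by the deposited fold and 4 with a mean of at least 60 tags, and those lower 5 by background tags, 5 by the deposited fold and 2 with at least 60 tags. For WT monocytes over WT CMP/GMP, 17 of 44 were higher by background tags and 1 of 44 by the deposited fold, beside 51.4% and 4.8%. Those lower numbered 1 of 44 and 2 of 44 by the same measures, beside 1.04% and 3.26%. With at least 10 tags 20 of 97 were lower, beside 16.1%, and with at least 60 tags 0 of 15, beside 2.96%. For Cxcr3-/- over WT, 4 of 106 regions were higher in monocytes with at least 10 tags, beside 1.71%. By background tags 1 of 47 was lower in monocytes, beside 4.09%, and 1 of 58 higher in CMP/GMP, beside 0.577%. Regions with cell-type ratios of opposite direction numbered 0 by background tags and 1 by the median of ratios, and those with opposite genotype ratios 0 by background tags. The scaling thus sets the number and the direction of cell-type ratios, while presence counts under equal-length lists, other overlaps or a −log10 q of at least 5 stayed within 1.5 times, at 68 to 81 regions in all 4 libraries, 17 to 23 monocyte-only and 28 to 34 CMP/GMP-only. Of 316 ratios of named regions under other scalings or measures, 281 moved by less than their counting interval, 35 moved more, and 0 of those past 2-fold changed sign. At median pileups of 21 to 29 tags, differences under 2-fold at 1 region are mostly within counting error.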

Other observations

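The median over regions hides opposite directions within single genes. A region was read as monocyte-high when it was monocyte-only or, with a mean of at least 30 tags, more than 2-fold higher in monocytes in at least 1 genotype, and as CMP/GMP-high by the opposite rule. Of the 27 members, 11 held regions of both kinds: Adgra2, Adgrb1, Adgre5, Adgrg2, Adgrg3, Adgrg6, Adgrg7, Adgrl2, Adgrl3, Adgrl4 and Adgrv1. Another 2, Adgre1 and Adgrf1, held monocyte-high regions alone, 5 held CMP/GMP-high regions alone, and 9 held neither. Presence needed no minimum of tags, so some genes count through weak calls. The monocyte-only regions of Adgrb1 and Adgrg2 had 10 and 11 tags in Cxcr3-/- and 14 and 10 in WT monocytes. The CMP/GMP-only region of Adgrg7 had 15 and 14 tags in Cxcr3-/- and WT CMP/GMP, and the stronger one of Adgrg6 had 15 and 10. The same count was not made over all genes, so it is not known whether the family differs from other genes in this. A locus with many regions, such as Adgrv1 with 31 or Adgrl2 with 18, has more room for both kinds. Of the 21 monocyte-only and 28 CMP/GMP-only regions of the family, 48 lay at or in no other gene and 1 did. Other genes here were protein-coding genes and any gene with a start in the promoter table, predicted ones included. Of the 14 regions that lay at or in another gene, 8 were called in all 4 libraries. Adgrv1 alone held 8 of the monocyte-only and 5 of the CMP/GMP-only regions.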
